A study of Mus musculus with 16 samples.

Results

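Fatty acid binding proteins (FABPs) are small cytoplasmic proteins that bind long-chain fatty acids and other lipids inside a barrel-shaped pocket and carry them between membranes, enzymes and the nucleus. Fabp1 encodes the liver form, one of the most abundant proteins of the hepatocyte cytoplasm, and Fabp2 the form named after the intestine, where enterocytes make it together with Fabp1. Fabp4 is known from adipocytes, endothelium and macrophages, Fabp5 from epidermis, adipocytes and macrophages, and Fabp7 from glia of the developing brain and, in mouse liver, from Kupffer cells. In hepatocytes the nuclear receptor PPARA, which is activated by fatty acids, is a known regulator of Fabp1. The genes Fabp1, Fabp2, Fabp4, Fabp5 and Fabp7 were taken by name from the deposited count table, 5 of its 55421 genes. They were chosen by family, and also selected on the count of Fabp1, which varied widely among the HIRA KO libraries. That spread, and every Fabp1 comparison that contains HIRA KO libraries, is therefore given as a description with no test.

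HIRA is a chaperone that deposits the histone variant H3.3 outside of DNA replication. RNA-seq was performed on poly(A) RNA from whole liver of male C57BL/6 mice, with 16 libraries in 4 groups of 4. Virus of serotype AAV8 was given at 6 months of age, and the TBG promoter on it restricts expression to hepatocytes, so other liver cells keep Hira. Control mice were wildtype and received either AAV8 Tbg-Cre or AAV8-Tbg-saCAS9/U6-sgRNA-Rosa26. HIRA KO mice were HIRA fl/fl that received AAV8 Tbg-Cre, or wildtype that received AAV8-Tbg-saCAS9/U6-sgRNA-HIRA. All 16 libraries thus come from virus-injected, operated mice. Part of the liver was resected 4 weeks after injection and served as the sample before regeneration, and what had regrown was taken 5 days after resection, so lobe and time changed together and cannot be told apart. Each group held 2 libraries of each deletion approach, but the columns of the table carry only the group and a running number from 1 to 4. Libraries are named here by that number, which does not identify the mouse or the approach. Every mouse gave a library of each time, and since the columns do not tell which belong together, times were compared without pairing.

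Total counts ran from 15103059 to 21738619 per library. Values are given as reads, or as CPM, counts scaled to a common library size with TMM factors, and comparisons between genes use FPKM, which divides by transcript length. Hira itself had 4.99 to 6.29 CPM in the control libraries and 3.04 to 4.56 CPM in the HIRA KO libraries. The 12 hepatocyte markers examined were present in every library and summed to between 109700 and 171400 CPM. On the second principal component of 13176 genes, which held 26.5% of the variance, columns 1 and 2 of HIRA KO lay between -47.4 and -36.2 at both times, and the other 12 libraries between -1.14 and 31.2. These 4 libraries matter for Fabp1, so results are also given without them.

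The genes lie on 3 chromosomes of the build GRCm38. Fabp1 (ENSMUSG00000054422.7) spans chr6:71199827-71205023 on the plus strand and Fabp7 (ENSMUSG00000019874.11) chr10:57784881-57788450 on the plus strand. The other members are on chromosome 3, with Fabp2 (ENSMUSG00000023057.5) at chr3:122895072-122899506 on the plus strand. Fabp4 (ENSMUSG00000062515.3, chr3:10204088-10208576, minus strand) and Fabp5 (ENSMUSG00000027533.10, chr3:10012548-10016607, plus strand) are near neighbours. Fabp2 overlaps the antisense gene 4933405D12Rik, and since the counting is not stated to use strand, reads of that gene cannot be told apart from those of Fabp2.

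The sequence upstream of the gene is shown for the members whose counts differed most, Fabp1 among HIRA KO libraries and Fabp7 between times. RefSeq promoters on GRCm38.p6 were matched for 3 of the 5 members, and each stretch runs 5′ to 3′ on the plus strand up to the base before the gene start annotated by GENCODE. For Fabp1 and Fabp7 the RefSeq start lies further downstream. Capitals in Fabp1 mark a match to AGGNCA and AGGTCA spaced by 1 base, read on the opposite strand, which is the direct repeat bound by PPAR with RXR and by HNF4A. Capitals in Fabp7 mark a match to TAGGTCA, also on the opposite strand, the core recognised by ROR and REV-ERB receptors. The same 7 letters are part of the Fabp1 match. Counted from the RefSeq start, the Fabp1 match begins 67 bases before it and the Fabp7 match 171 bases before it. A TATAAA match of Fabp1, 30 bases before the RefSeq start, lies beyond the printed stretch.
Fabp1, chr6:71199629-71199826: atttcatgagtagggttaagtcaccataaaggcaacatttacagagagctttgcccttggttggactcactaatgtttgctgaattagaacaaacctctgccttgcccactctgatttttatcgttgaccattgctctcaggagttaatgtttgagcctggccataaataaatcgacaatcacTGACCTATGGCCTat
Fabp7, chr10:57784673-57784880: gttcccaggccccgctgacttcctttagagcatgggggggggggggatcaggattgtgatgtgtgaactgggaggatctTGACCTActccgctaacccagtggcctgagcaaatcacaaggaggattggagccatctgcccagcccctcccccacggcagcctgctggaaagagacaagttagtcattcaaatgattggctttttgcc
The direct repeat occurred in 31 of 32851 RefSeq promoter windows of 250 bases before to 50 after the start (0.0944%), and the shorter core in 856 (2.61%), with both strands searched. Neither was found in the window of Fabp2, nor was the E-box CACGTG or the D-box (TTA and GTAA around 1 base) in any of the 3 windows. A match of letters is a description of the sequence and not evidence of binding.

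By FPKM, Fabp1 was the most abundant member in every group, with a mean of 2838 over the 16 libraries. Fabp2 followed at 53.9, Fabp5 at 15.4, Fabp4 at 9.31 and Fabp7 at 5.83 FPKM. Fabp1 and Fabp2 did not overlap in any library, whereas the lower members did: Fabp5 ranged from 6.02 to 39.7, Fabp4 from 4.08 to 17.7 and Fabp7 from 1.31 to 15.1 FPKM. In control after regeneration Fabp5 also stood above Fabp2 in column 1 (28.27 against 25.66 FPKM) and column 2 (28.95 against 25.79 FPKM). Before regeneration Fabp4 stood above Fabp5 in HIRA KO (means of 8.95 and 8.84 FPKM) and below it in control (6.70 and 21.3 FPKM). In control liver before regeneration Fabp1 ranked between 27 and 41 among all genes by FPKM and made up 97.9% of the summed FPKM of the members. In HIRA KO after regeneration that share averaged 87.8% and ran from 73.3% to 97.1%. The order of Fabp4 and Fabp7 was reversed when counts were divided by the annotated exon length. So was that of Fabp4 and Fabp5 in HIRA KO before regeneration, at 2.05 and 2.85 CPM per kilobase. Those neighbours thus have no firm order.

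**Figure D1:**
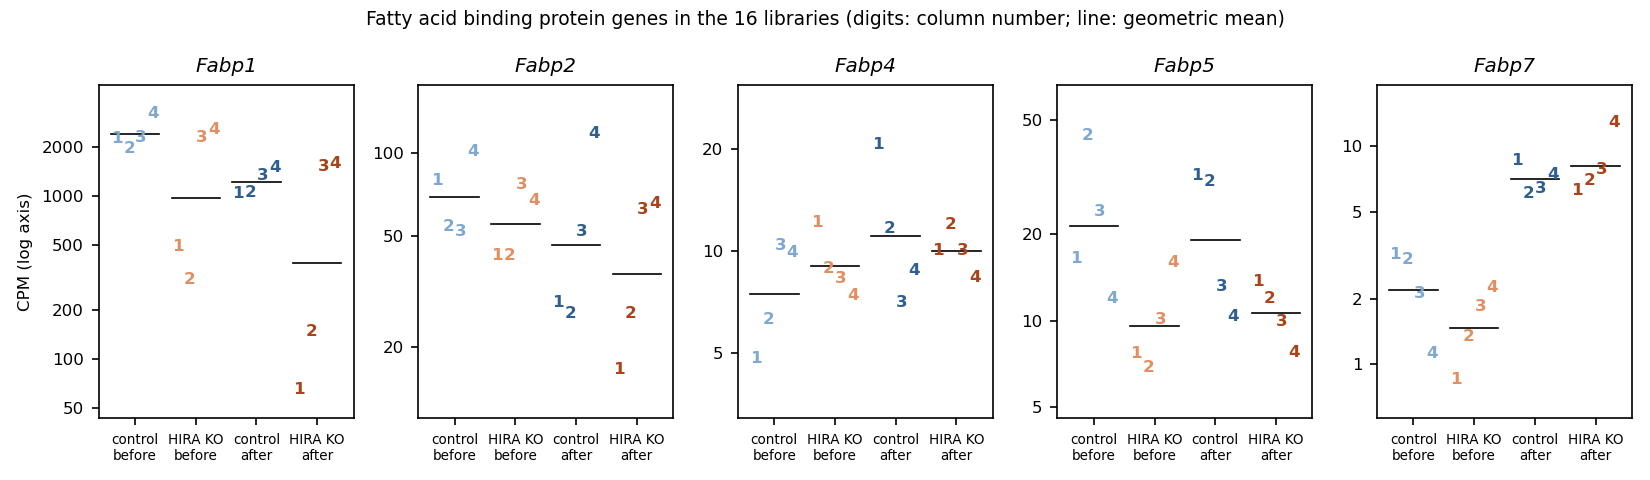
CPM of each FABP gene (log axis) in the 4 groups. Each digit is 1 library, printed as its column number, and the line is the geometric mean of the 4 libraries. In HIRA KO, Fabp1 in columns 1 and 2 (64.9 to 490.2 CPM) lies below every other library (1045 CPM or more), and Fabp7 after regeneration (6.08 CPM or more) lies above every library before it (3.18 CPM or less).

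Fabp1, the liver form, split the HIRA KO libraries into a low and a high pair at both times. Control livers before regeneration had 45453, 36497, 40315 and 54670 Fabp1 reads, which are 2260, 1963, 2308 and 3236 CPM. HIRA KO livers before regeneration had 9264, 4599, 33890 and 41088 reads in columns 1 to 4, which are 490.2, 306.7, 2304 and 2573 CPM. Columns 3 and 4 thus lay inside the control range, and columns 1 and 2 below it.

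After regeneration, control livers had 16690, 18310, 24652 and 31357 Fabp1 reads (1045, 1049, 1344 and 1505 CPM). HIRA KO livers had 1433, 3312, 32090 and 28525 reads (64.9, 147.1, 1522 and 1587 CPM). The same column numbers were low again, and columns 3 and 4 lay just above the control range. The highest HIRA KO library held 8.39 times the CPM of the lowest before regeneration and 24.4 times after it, against 1.65 and 1.44 times in control. In column 1 after regeneration Fabp1 stood at rank 489 by FPKM, and in the control libraries of that time between 38 and 62.

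Expressed against all genes with a mean of at least 5 CPM (9722 genes), the SD of log2(CPM + 1) of Fabp1 among HIRA KO libraries was 1.56 before regeneration and 2.35 after. It was above that of 99.5% and 99.8% of these genes, whose medians were 0.167 and 0.212. Among control libraries the SD was 0.306 and 0.263, above 85.7% and 77.8% of genes. The 4 libraries that stood apart on the second component were the 4 lowest of all 16 for Fabp1.

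Fitted log2 fold changes of Fabp1 therefore depended on which HIRA KO libraries entered. HIRA KO differed from control by -0.78 ± 0.880 (SE) before and -0.57 ± 0.877 after regeneration with all libraries, and by 0.00 and 0.35 without the 4 libraries apart. These 2 sets of values are descriptions and were not tested. The 12 hepatocyte markers did not move together with Fabp1 in 1 direction. In HIRA KO columns 1 and 2 before regeneration 4 of them were lower than in columns 3 and 4 (Apoa1, Serpina1a, Slc10a1 and Cyp2e1), 7 were higher, Alb among them, and 1 overlapped. After regeneration 4 were lower (Ttr, Serpina1a, Slc10a1 and Cyp2e1), 5 were higher and 3 overlapped. The bile acid transporter gene Slc10a1 had 45.1 and 110.4 CPM in columns 1 and 2 against 573.6 and 671.8 CPM before regeneration, and 38.8 and 54.1 against 248.4 and 287.6 CPM after it. Cyp2e1, a cytochrome P450 of hepatocytes, had 2644 and 2966 against 6893 and 6980 CPM before regeneration, and 393.0 and 1248 against 2463 and 3057 CPM after it. Both genes were thus lower in the HIRA KO libraries low in Fabp1 than in the other HIRA KO libraries. Cps1 and Ass1, of the larger part of the list, went the other way. Cps1 had 6191 and 6720 against 2553 and 3311 CPM before regeneration, and 6455 and 5283 against 2045 and 2406 CPM after it. Ass1 had 6237 and 6026 against 1974 and 2714 CPM before regeneration, and 3409 and 4385 against 1750 and 1854 CPM after it. The summed level of the list was 134500 to 171400 CPM in the 4 low libraries and 109700 to 160300 CPM in control, but Alb alone was 71.4% to 85.8% of that sum over the 16 libraries. Summed markers of other cells also differed between these columns before regeneration. The 10 stellate cell and matrix markers summed to 719.4 and 519.7 CPM in columns 1 and 2 against 271.5 and 285.4 CPM in columns 3 and 4, and the 7 cholangiocyte markers to 172.5 and 120.0 against 75.7 and 92.0 CPM. The 9 lipid-associated macrophage and monocyte markers summed to 175.0 and 158.0 against 105.6 and 102.6 CPM, and the 12 mitotic genes to 30.6 and 23.6 CPM against 11.2 CPM in both. After regeneration the stellate sums were 525.4 and 405.7 against 355.2 and 417.8 CPM, the cholangiocyte sums 157.8 and 125.4 against 123.0 and 97.8 CPM, and the lipid-associated macrophage and monocyte sums 334.4 and 308.1 against 248.8 and 258.2 CPM. The mitotic sums at that time were 88.5 and 57.3 against 408.5 and 115.1 CPM, the opposite order. The part of these cells and of proliferation in the Fabp1 values was not tested. Each HIRA KO group also held 2 libraries of each deletion approach. Since the columns do not give the approach, whether the split follows it cannot be told.

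In control liver, where the members' choice did not use Fabp1, its level after regeneration was below that before in all libraries, with a log2 fold change of -0.98 ± 0.883. The edgeR fit of all 16 libraries did not call it (adjusted p = 0.573, with the spread of the HIRA KO libraries included). With only the control groups fitted the adjusted p was 0.00404, and without the 4 libraries apart it was 0.000866, at the same fold change. An exact two-sided permutation test of the 4 against 4 libraries gave p = 0.0286, the smallest it can give, and 0.162 after adjustment over 17 such tests. The level after regeneration was thus 1.98-fold lower, and its call differed between these fits. In HIRA KO columns 3 and 4, Fabp1 went from 2304 and 2573 CPM before to 1522 and 1587 CPM after regeneration, and in columns 1 and 2 from 490.2 and 306.7 to 64.9 and 147.1 CPM.

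**Figure D2:**
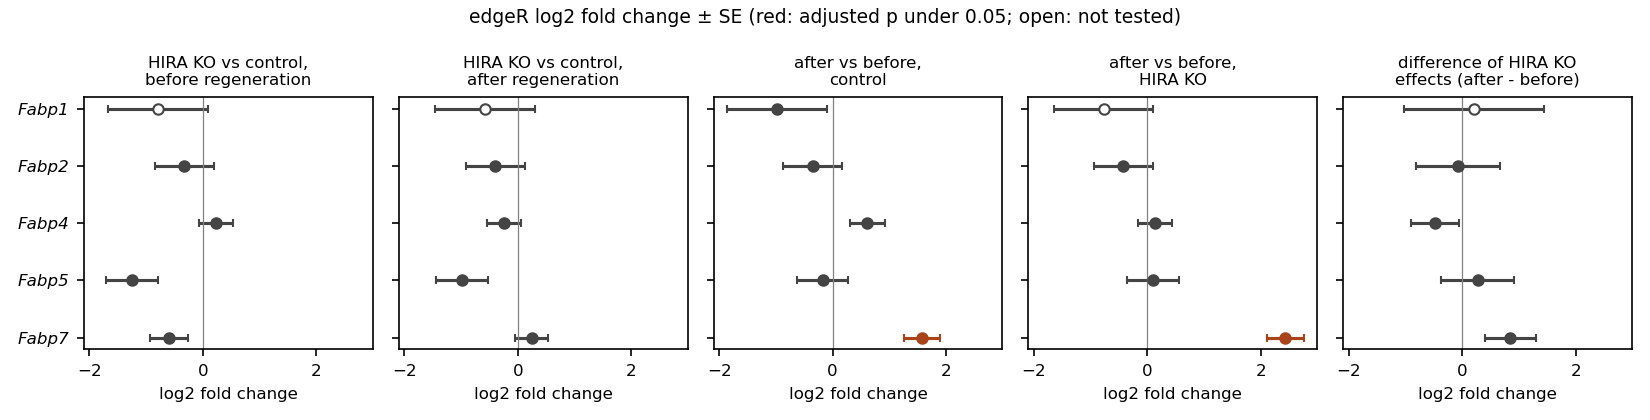
Log2 fold change (points) with its SE (bars) of the 5 FABP genes in the 4 comparisons and in the difference of the HIRA KO effects between times, from edgeR on 16 libraries. Red points pass an adjusted p of 0.05, open points were not tested, and the vertical line marks no change. Only Fabp7 after against before regeneration is red, at 1.58 in control and 2.43 in HIRA KO.

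Of the 5 genes whose levels were most like those of Fabp1 over the 16 libraries, 4 are reported: Hsd17b4, a peroxisomal enzyme of fatty acid oxidation (r = 0.976), Ugt3a1, a UDP-glycosyltransferase (r = 0.976), Khk, ketohexokinase (r = 0.969), and Nit2, an omega-amidase (r = 0.967). These are Pearson correlations of log2(CPM + 1) over 9722 genes, given as descriptions, since the libraries share their groups and their split. Ugt3a1 had 38.8 to 60.3 CPM in control after regeneration and 3.40 to 69.4 CPM in HIRA KO. Hsd17b4 had 322.5 to 426.1 CPM in control after regeneration and 139.3 to 407.8 CPM in HIRA KO. When each group's mean was first removed, Ugt3a1 (r = 0.976) and Hsd17b4 (0.970) stayed among the first 5, and Msra (0.984) and Cenpv (0.966) entered. The same HIRA KO libraries were low for each of the 4 genes in the panel of Fabp1-like genes.

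Fabp2 encodes the intestinal form, which in this liver was the second most abundant member by mean FPKM. Its CPM were 79.3, 54.3, 52.1 and 101.0 in control before regeneration and 42.7, 42.7, 76.5 and 67.1 in HIRA KO. After regeneration they were 28.8, 26.4, 51.9 and 117.3 in control livers and 16.5, 26.4, 62.5 and 65.5 in HIRA KO. The groups overlapped in every comparison, with columns 1 and 2 of HIRA KO below columns 3 and 4 at both times and control column 4 highest at both times. None of the fitted differences was called, at -0.33 ± 0.521 and -0.40 ± 0.522 for HIRA KO against control before and after regeneration, -0.35 ± 0.521 for control liver after against before regeneration, and -0.42 ± 0.523 for HIRA KO liver. Adjusted p values of edgeR lay between 0.664 and 0.837. Without control column 4 after regeneration the difference between HIRA KO and control at that time turned to 0.31, and the change in control went to -1.04, neither called. The enterocyte markers Cdx1, Cdx2 and Sis were at 0 reads in every library. Another gene of that list, villin (Vil1), had 10.1 and 8.80 CPM in HIRA KO columns 1 and 2 before regeneration and 0.118 to 0.484 CPM in control. In HIRA KO columns 3 and 4 the whole list summed to only 0.748 and 1.07 CPM at that time. After regeneration the sums in HIRA KO columns 1 to 4 were 6.16, 7.11, 1.23 and 0.724 CPM. The cells that gave the Vil1 reads were not tested.

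Over the 16 libraries Fabp2 was most like Acadl, the long-chain acyl-CoA dehydrogenase (r = 0.931), Lonp1, a protease of the mitochondrial matrix (r = 0.923), Dhrs4 (r = 0.914), Hadha, the alpha subunit of the mitochondrial trifunctional protein (r = 0.900), and Decr1, a dienoyl-CoA reductase (r = 0.895). Lonp1 (0.954) and Acadl (0.950) led again after group means were removed. Acadl, Hadha and Decr1 act in mitochondrial fatty acid oxidation. Acadl ranged from 90.8 to 176.4 CPM in HIRA KO after regeneration and from 116.9 to 241.0 CPM in control, a narrower range than that of Fabp2.

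**Figure D3:**
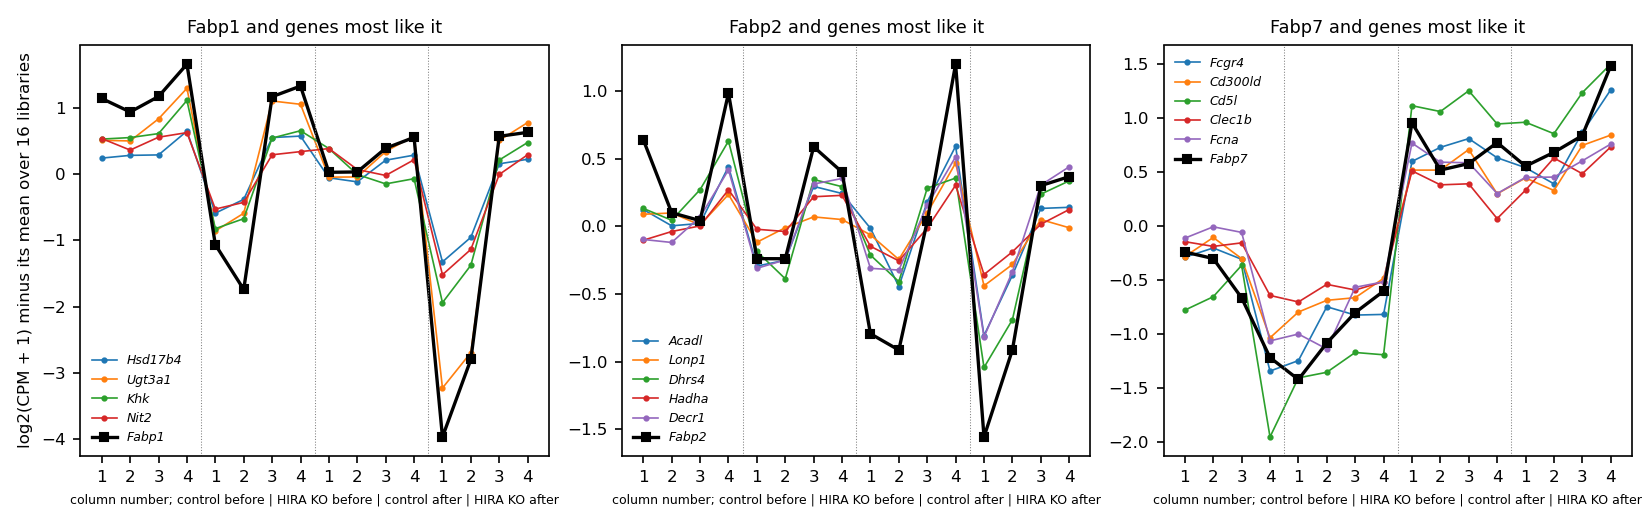
Level of Fabp1, Fabp2 and Fabp7 (black squares) and of genes most like each (coloured points, 4 for Fabp1 and 5 for the others), as log2(CPM + 1) minus its mean over the 16 libraries, against column number within the 4 groups. Fabp1 and its like genes drop in columns 1 and 2 of HIRA KO at both times, Fabp2 peaks in control column 4, and Fabp7 and its like genes are high in the 8 libraries after regeneration.

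Fabp4, the adipocyte form, was low in these livers, with 97 to 329 reads per library. Its CPM were 4.82, 6.29, 10.4 and 9.89 in control livers and 12.2, 8.87, 8.29 and 7.39 in HIRA KO before regeneration. After regeneration they were 20.6, 11.6, 7.03 and 8.79 in control livers and 10.1, 12.0, 10.1 and 8.35 in HIRA KO. The groups overlapped in all comparisons, and column 1 of control after regeneration stood highest. In that library 6 adipocyte markers summed to 45.6 CPM, against 3.31 to 17.4 CPM in the other 15, with adiponectin (Adipoq) at 3.51 CPM and adipsin (Cfd) at 25.6 CPM. The next highest marker sum, 17.4 CPM, and the next highest Fabp4 level, 12.2 CPM, were both in HIRA KO column 1 before regeneration. The other libraries did not keep this order. In HIRA KO after regeneration, Fabp4 of 8.35 to 12.0 CPM stood beside marker sums of only 4.41 to 6.40 CPM. Fabp4 per 1000 CPM of the marker sum ran from 451.9 to 2652 in control after regeneration and from 1304 to 2468 in HIRA KO. The 12 endothelial markers summed to 403.0, 384.7, 262.7 and 271.4 CPM in control columns 1 to 4 after regeneration, the order of Fabp4 there. In control before regeneration they summed to 436.6, 479.6, 422.4 and 381.0 CPM, which was not the order of Fabp4. The share of fat tissue, endothelium and macrophages in the Fabp4 values was not tested. The largest fitted difference of Fabp4, 0.62 ± 0.303 for regeneration in control (adjusted p = 0.236), was 0.24 without that library, and HIRA KO against control after regeneration turned from -0.25 to 0.15. Its most alike gene was Sema3f (r = 0.822), followed by Ciz1 (0.739).

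Fabp5, the epidermal form, was lower on average in HIRA KO at both times, but the difference did not pass the test. Its CPM were 16.4, 44.3, 24.1 and 12.0 in control before regeneration and 7.67, 6.87, 10.1 and 16.0 in HIRA KO. After regeneration they were 32.0, 30.4, 13.1 and 10.3 in control livers and 13.7, 12.0, 9.96 and 7.74 in HIRA KO. Single control libraries reached 44.3 CPM, while no HIRA KO library exceeded 16.0 CPM, and the groups overlapped at both times. The log2 fold change of HIRA KO against control was -1.25 ± 0.459 before regeneration (edgeR, unadjusted p = 0.0171, adjusted p = 0.289) and -0.98 ± 0.454 after it (unadjusted p = 0.0501, adjusted p = 0.317). DESeq2 gave adjusted p values of 0.0859 and 0.157. The value before regeneration was -0.79 without control column 2. After against before regeneration, Fabp5 was at -0.18 ± 0.446 in control and 0.10 ± 0.459 in HIRA KO, with adjusted p values of 0.878 and 0.920. The 6 keratinocyte markers summed to between 2.27 and 4.85 CPM over all libraries. The part of adipocytes and macrophages in the Fabp5 values was not tested. Its levels were most like those of Gm45470 (r = 0.881), Fkbp15 (0.871), Polm (0.868), the lysosomal mannosidase gene Man2b1 (0.860) and the magnesium transporter gene Slc41a1 (0.839).

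Fabp7, known as the brain form, was by FPKM the lowest member before regeneration and rose after it in both genotypes. Control livers had 64, 56, 37 and 19 reads before and 137, 106, 117 and 155 reads after regeneration. HIRA KO livers had 16, 20, 27 and 36 reads before and 138, 156, 165 and 230 reads after. Scaled to CPM, control rose from 2.36 ± 0.947 to 7.12 ± 1.14 (SD, n = 4) and HIRA KO from 1.57 ± 0.611 to 8.45 ± 2.97. No library before regeneration reached the level of any library after it.

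The increase was 3.00-fold in control (log2 fold change 1.58 ± 0.315, edgeR adjusted p = 0.00413) and 5.40-fold in HIRA KO (2.43 ± 0.330, adjusted p = 0.000304). Of the members, Fabp7 was the 1 of 5 called in control and the 1 of 4 tested in HIRA KO, where 10.2% and 12.0% of the 23018 genes tested were called. Groups did not overlap for 2 of 5 members in control (Fabp1 and Fabp7) and for 1 of 5 in HIRA KO, against 19.0% and 16.1% of all genes. Fabp7 ranked 530 and 69 by p among all genes. It was called under all alternatives run, with values between 1.35 and 1.76 in control and between 2.18 and 2.67 in HIRA KO when single libraries were left out. The increase was not shown to differ between genotypes, with a difference of 0.85 ± 0.448 (adjusted p = 0.756). HIRA KO against control was -0.60 ± 0.336 before and 0.25 ± 0.297 after regeneration (adjusted p = 0.457 and 0.743).

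The genes most like Fabp7 over the 16 libraries were Fcgr4, an Fc receptor of myeloid cells (r = 0.971), Cd300ld, a myeloid receptor (r = 0.963), Cd5l, a protein secreted by tissue macrophages (r = 0.959), Clec1b, a C-type lectin (r = 0.956), and Fcna, ficolin A (r = 0.951). Fcgr4 had 2.31 to 6.29 CPM in control before and 11.7 to 13.7 CPM after regeneration, and 2.54 to 4.00 and 10.0 to 19.1 CPM in HIRA KO. Likeness rested on the change between times: once group means were removed, other genes led, with Mov10 (r = 0.859) first, and none of the 5 stayed. Only Cd5l of these was in a marker list.

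Beside Fabp7, all 11 Kupffer cell and macrophage markers were called higher after regeneration in both genotypes, and 10 of 11 in each without the 4 libraries apart. The fit of 16 libraries called 10.2% of all genes in control and 12.0% in HIRA KO. Their medians were 1.12 in control and 1.58 in HIRA KO on the log2 scale, where the medians of all genes were 0.00 and 0.02. Cd5l rose by 1.94 ± 0.243 and 2.46 ± 0.248 (adjusted p = 0.000219 and 4.54e-05), and Marco, a scavenger receptor, by 3.86 ± 0.496 and 4.12 ± 0.505 (adjusted p = 0.000622 and 0.000418). The markers summed to 203.5 to 543.0 CPM in control and 281.3 to 318.5 CPM in HIRA KO before regeneration, and to 889.5 to 1122 and 896.9 to 1327 CPM after it. Fabp7 per 1000 CPM of the marker sum had a median of 6.23 in control before and 6.82 after regeneration, and 5.30 and 7.23 in HIRA KO. These ratios overlapped between times in control (3.90 to 8.06 and 5.63 to 8.37) and in HIRA KO (2.84 to 7.08 and 6.40 to 9.65). In bulk tissue a larger number of such cells and more RNA per cell cannot be told apart, and the part of the macrophage markers in the Fabp7 values was not tested. The 6 neural and glial markers summed to between 2.24 and 7.99 CPM over all libraries.

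**Figure D4:**
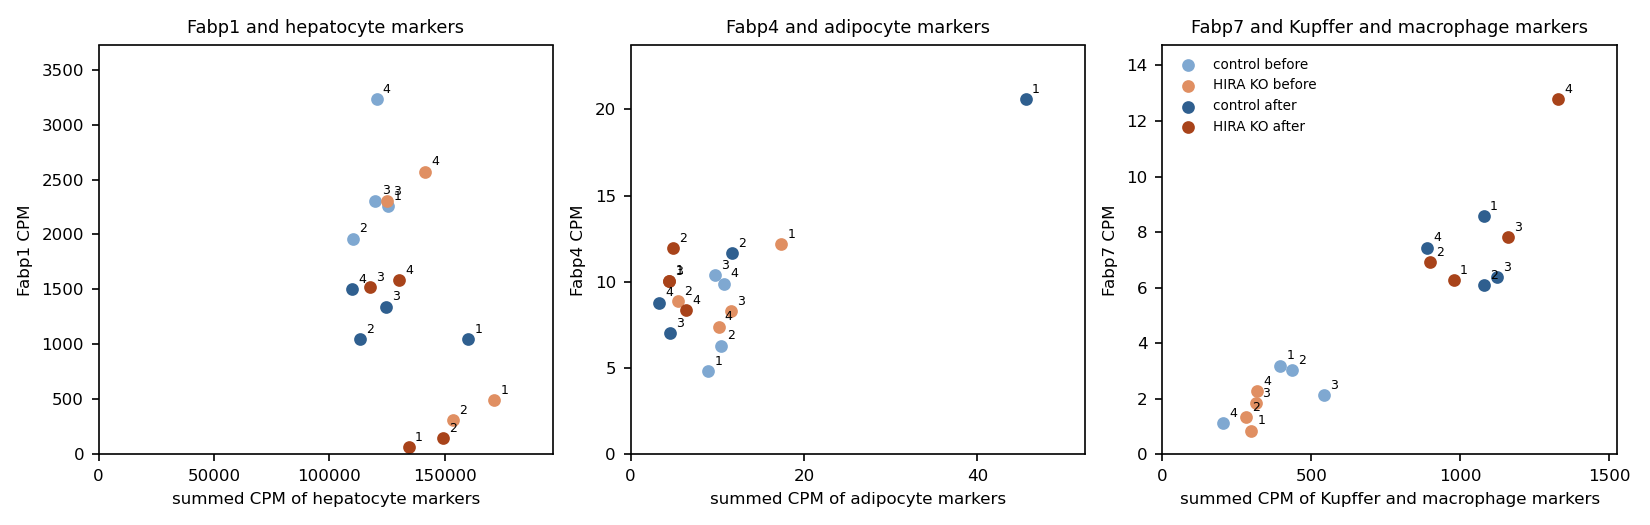
CPM of Fabp1, Fabp4 and Fabp7 against the summed CPM of hepatocyte, adipocyte and Kupffer cell and macrophage markers, 1 point per library, coloured by group and numbered by column. The 4 libraries lowest in Fabp1 have hepatocyte sums of 134500 to 171400 CPM, most of it Alb, and control column 1 after regeneration is at 160300 CPM. The highest Fabp4 goes with the highest adipocyte sum (45.6 CPM), and Fabp7 and macrophage markers are both higher in the libraries after regeneration.

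HIRA KO against control gave no called member at either time, among the 4 that were tested. The edgeR fit called 0.0391% of all genes before and 0.491% after regeneration. No member had groups that did not overlap, where 8.07% and 8.10% of all genes did. At an unadjusted p under 0.05 there was 1 member before (Fabp5) and 0 after, against 3031 and 3629 of all 23018 genes. DESeq2 and limma voom called 0 members at both times. No member was called for the difference between the effects by edgeR, DESeq2 or limma voom, where edgeR called 0 of all genes. At an unadjusted p under 0.05 by edgeR there were 0 members and 1567 of all genes.

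Among other genes of the same lipid-binding family, several were hardly detected. Fabp9 and Pmp2, which belong to the chromosome 3 group of these genes, were at 0 reads in every library. Fabp3, the heart and muscle form, had 0 to 9 reads except for 76 in HIRA KO column 3 after regeneration.

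In the pathway around the FABPs, 2 of 11 genes of fatty acid uptake and activation fell in control after regeneration and 1 in HIRA KO, where 10.2% and 12.0% of all genes were called in either direction, with list medians of -0.15 and -0.23 on the log2 scale (all genes 0.00 and 0.02). Without the 4 libraries apart, 1 was called higher and 4 lower in control, and 2 lower in HIRA KO. Acsl1, the main acyl-CoA synthetase of hepatocytes, fell by 1.10 ± 0.137 in control (1000 ± 95.0 to 467 ± 44.6 CPM, adjusted p = 0.000185) and by 1.08 ± 0.137 in HIRA KO (adjusted p = 0.000199). Slc27a5, a bile acid and very long-chain acyl-CoA synthetase, fell by 0.78 ± 0.217 in control (adjusted p = 0.0276). Cd36, the fatty acid translocase, varied from 18.2 to 280.6 CPM over the control libraries, and its regeneration difference of 0.90 ± 0.819 in control was not called. In HIRA KO against control edgeR called none of the 11, and DESeq2 called 0 before and 2 after regeneration. At an unadjusted p under 0.05 by edgeR there were 2 of 11 at each time, against 3031 before and 3629 after of all 23018 genes.

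Of 26 PPARA target genes, 1 rose in control after regeneration, and 1 rose and 1 fell in HIRA KO, with list medians of -0.07 and -0.23. The shares of all genes called were 10.2% and 12.0%. Without the 4 libraries apart, 1 was called higher and 5 lower in control, and 2 lower in HIRA KO. Cyp4a31, a fatty acid omega-hydroxylase, rose by 3.02 ± 0.560 in control livers and 2.49 ± 0.551 in HIRA KO (adjusted p = 0.00444 and 0.0114). Its reads may be shared with near-identical Cyp4a genes. Cyp4a14 ranged from 1.08 to 351.8 CPM over the control libraries and was called nowhere. In HIRA KO columns 1 and 2 it had 1.38 and 1.47 CPM before regeneration and 4.89 and 8.44 CPM after it, against 84.9 to 242.4 CPM in columns 3 and 4 at both times. In HIRA KO against control edgeR called none of the 26, and neither DESeq2 nor limma voom called any. At an unadjusted p under 0.05 by edgeR there were 1 before and 0 after regeneration, against 3031 and 3629 of all 23018 genes.

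Lipid droplet and triglyceride genes (18) had 2 that fell in control after regeneration and none called in HIRA KO, where DESeq2 called 1 lower. At an unadjusted p under 0.05 by edgeR there were 2 of the 18 in HIRA KO, against 6318 of all 23018 genes. Among all genes, edgeR called 10.2% in control and 12.0% in HIRA KO. The list medians were -0.48 and -0.30, and without the 4 libraries apart 3 were called lower in control and 1 in HIRA KO. Plin4, a droplet coat protein, fell by 2.27 ± 0.580 (adjusted p = 0.0237) and Dgat2, which makes triglyceride, by 0.97 ± 0.260 (adjusted p = 0.0247). Plin2, the main droplet protein of hepatocytes, was not called, at -0.13 ± 0.342 in control and -0.22 ± 0.342 in HIRA KO (adjusted p = 0.884 and 0.741). In HIRA KO columns 1 and 2 it had 195.2 and 211.7 CPM before regeneration, below the 398.4 and 441.4 CPM of columns 3 and 4. In HIRA KO against control edgeR called none of the 18, while DESeq2 called 1 higher at each time and limma voom 0. At an unadjusted p under 0.05 by edgeR there were 3 before and 1 after regeneration, against 3031 and 3629 of all 23018 genes.

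Of 13 transcription factors known to act on FABP genes, 1 rose and 1 fell in control after regeneration, and 2 fell in HIRA KO. Calls over all genes were 10.2% and 12.0%, and the list medians were -0.23 and -0.32. Without the 4 libraries apart, 1 was called higher and 5 lower in control, and 3 lower in HIRA KO. Ppard, the ubiquitous PPAR, rose by 1.40 ± 0.284 in control (11.2 ± 4.48 to 29.6 ± 6.60 CPM, adjusted p = 0.00597) and was at 0.48 ± 0.285 in HIRA KO (adjusted p = 0.308). Cebpa fell by 0.91 ± 0.214 in control (adjusted p = 0.0110). In HIRA KO, Ppara fell by 0.87 ± 0.261 (adjusted p = 0.0428), and its difference in control was -0.81 ± 0.260 (adjusted p = 0.0616). Hnf4a did not pass the test anywhere, at -0.14 ± 0.193 in control and -0.13 ± 0.193 in HIRA KO. Ppara had 31.8 and 36.3 CPM in HIRA KO columns 1 and 2 before regeneration, and 70.8 and 79.1 CPM in columns 3 and 4. In HIRA KO against control edgeR called none, DESeq2 called 0 before and 2 lower after, and limma voom called 0. At an unadjusted p under 0.05 by edgeR there were 1 of 13 before and 2 after regeneration, against 3031 and 3629 of all 23018 genes. No difference between genotypes in the regeneration effects was called by edgeR, DESeq2 or limma voom. At an unadjusted p under 0.05 by edgeR there was 1 of 13, against 1567 of all genes.

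Clock genes were examined because Fabp7 and Fabp1 cycle with the time of day in liver. Of 16, 9 fell in control after regeneration, among them Hlf (by 0.92 ± 0.165, adjusted p = 0.00215), Nr1d2 (by 1.04 ± 0.200, adjusted p = 0.00358), Tef and Per1, and 1 fell in HIRA KO. Over all genes 10.2% and 12.0% were called. The list medians were -0.98 and -0.29, and without the 4 libraries apart 10 and 2 were called lower. Nr1d1, which encodes REV-ERB alpha, fell by 1.20 ± 0.352 in control and 1.29 ± 0.352 in HIRA KO (adjusted p = 0.0451 and 0.0297). Dbp fell by 3.19 ± 0.878 in control (adjusted p = 0.0365) and was at -0.32 ± 0.755 in HIRA KO (adjusted p = 0.839). No clock gene was called for the difference of effects by edgeR, DESeq2 or limma voom (0 of 16 by each). At an unadjusted p under 0.05 by edgeR there were 5 of 16, and 1567 of all 23018 genes. Arntl was called nowhere, with 0.90 ± 0.540 in control. In HIRA KO against control after regeneration Ciart alone was called by edgeR, at 4.76 ± 0.772 (adjusted p = 0.0383), where 0.491% of all genes were. At an unadjusted p under 0.05 there were 10 of 16, and 3629 of all 23018 genes, and DESeq2 called 6 of the 16 higher. Before regeneration edgeR called none in that comparison (1 at an unadjusted p under 0.05, against 3031 of all genes), DESeq2 called 1 higher and limma voom 0. Per the study's methods, surgery, which yielded the livers before regeneration, was done in the morning. The hour of each library, before or after regeneration, is not given in the sources used here, and the part of the hour in the Fabp1 and Fabp7 values was not tested.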

How the data were processed

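Whole-gene read counts and FPKM of 16 mouse liver libraries were used. Per the study's methods, the authors aligned reads to mm10 with STAR and counted them with HOMER, while the submitters' processing notes name STAR, HTSeq and Cufflinks. The annotation release is not given in the sources used here. The deposited count table holds whole numbers, and the deposited FPKM values (length and library scaled) had empty cells that were read as 0. Coordinates came from GENCODE M21 (54587 of 55421 gene IDs identical).

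Genes with at least 10 counts in total (23018) were fitted in 1 model of 4 group means with edgeR 4.0.16 (R 4.3.3), using TMM factors, the robust quasi-likelihood test and Benjamini-Hochberg adjustment over all genes, and called at an adjusted p under 0.05. An SE is the log2 fold change over the root of F. Depth of 15103059 to 21738619 counts limits the precision of Fabp7 most. The fit was also run on simulated counts with known changes, drawn without the split among HIRA KO libraries. Its outcome is not given here and does not bear on that split. DESeq2 1.42.0, limma 3.58.1 (voom), other filters and scaling, and fits without single libraries were alternatives. List counts from DESeq2, limma voom and the fit without the 4 libraries apart are given without the share of all genes those fits called. Whether they exceed that share is therefore not shown here. The members and gene lists were chosen with earlier results of these data known. Genes named were the members, up to 4 called genes per list with the smallest adjusted p, 9 fixed genes and the 5 most like each member; Vil1, Adipoq, Cfd, Marco, Fabp3 and Ciart were named after their values were seen. That libraries of a group came from separate mice follows from the series' design text. Some genes that this rule names are not reported here.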

Additional observations from a re-analysis of the deposited data

How the results depend on the processing

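The increase of Fabp7 after regeneration kept its call in both genotypes under every alternative. In control, the members called after regeneration went from 1 to 2 with only the groups compared and, in a fit chosen after the data were seen, without HIRA KO columns 1 and 2 of both times. Fabp1 was the addition. Several differences that were never called changed sign. Without these 4 libraries Fabp2 was at 0.007 and 0.20 for HIRA KO against control before and after regeneration and at 0.20 for the difference of effects, and Fabp5 was at -0.54 for regeneration in HIRA KO and at -0.36 for the difference of effects. Leaving out single libraries spanned, for HIRA KO against control after regeneration, -0.67 to 0.31 for Fabp2, -0.42 to 0.15 for Fabp4 and -0.01 to 0.39 for Fabp7. For Fabp5 it spanned -0.43 to 0.29 for regeneration in control and -0.031 to 0.40 in HIRA KO. The difference of effects spanned -0.34 to 0.63 for Fabp2 and -0.18 to 0.58 for Fabp5. Fabp1 in HIRA KO against control went to -1.30 before and -1.63 after regeneration with limma voom. The genes most like a member changed with the measure of likeness. Spearman correlation and log2(CPM + 0.1) were the 2 other settings. Of the 5 genes by level they kept 1 to 5 for Fabp1, 1 to 4 for Fabp2 and 1 to 4 for Fabp4. For Fabp5 they kept 4 to 5, and for Fabp7 3 to 5. The genes named as most alike hold for the Pearson setting. No paired analysis was possible because the columns carry neither the mouse nor the replicate numbers of the labels, and the fit with deletion approach was not run for the same reason. The columns do carry a running number, which is in no label and was not used to pair. Deviations from the group means of the same-numbered columns before and after regeneration correlated at 0.386 to 0.587 in HIRA KO and 0.0805 to 0.377 in control.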
